A study of Mus musculus with 8 samples.

Results

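The regions described here are CpG-rich stretches named for genes of the cytosolic ribosome, Rpl genes for the large subunit and Rps genes for the small one. They were chosen by name alone: array probes whose gene name was Rpl or Rps followed by a number, with the Rps6k kinases left out, in either of the 2 gene annotations of the array. Of 413 such probes 376 could be used, and 352 of these lay in 68 regions that had at least 3 probes and were named mainly for a ribosomal protein gene. The 68 regions, of 13183 regions in all, belonged to 65 genes, with 41 regions for the large subunit and 27 for the small one. Ribosomal protein regions held 3 to 12 probes (median 5) and had a median length of 672 bp, against 618 bp for all regions. The regions lay on 18 chromosomes, with 3 on the X chromosome (Rpl39, Rpl36a and Rps4x). Of the named genes, 10 had no region of their own, 8 because their probes were too few or lay in a region named for a neighbour (Rpl7a, Rpl10, Rpl15, Rpl18, Rps16, Rps18, Rps26 and Rps28) and Rpl10l and Rps23 because no probe could be used.

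Ribosomal protein genes are expressed in every growing cell, since each ribosome needs 1 copy of almost every such protein. Their promoters are CpG islands, which in mammals are usually free of DNA methylation, and transcription starts in a short stretch of pyrimidines. Methylation of CpG islands is the usual state at the inactive X chromosome of females, at imprinted genes on 1 parental allele, and at germline genes in somatic cells.

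Methylated DNA was measured by mDIP, in which an antibody against 5-methylcytidine pulls methylated fragments out of sonicated, denatured DNA. Bound DNA (Cy5) and input DNA (Cy3) of each sample were hybridised together to 1 mouse CpG island array. The 8 groups, of 1 array each, were embryonic stem (ES) cells that were wild type, aid-/- (without the cytidine deaminase AID), mbd4-/- (without the thymine glycosylase Mbd4) or had a knockdown of Gadd45a, and liver and spleen from C57BL6/J mice aged 6 months that were either aid-/- or mbd4-/-. The study addressed a demethylation pathway of CpG islands in ES cells. Wild-type tissue was not analysed here, and the labels give no clone, passage or sex. Each value is the mean over a region's probes of log2 bound over input, with the median of its array at 0. It ranks regions within an array and is no methylation percentage. With 1 array a group, a difference between 2 arrays has no replicate check, and the SD given is over probes of 1 array. Values in series are in the order ES aid-/-, ES wild type, ES mbd4-/-, ES Gadd45a knockdown, liver aid-/-, liver mbd4-/-, spleen aid-/-, spleen mbd4-/-.

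RefSeq promoter windows, 250 bases before to 50 after a start, were found for 45 of the 65 genes (56 windows, build GRCm38.p6). They held a median of 21 CpGs (range 8 to 42), against 7 over all 32851 windows, and 46 of 56 (82.1%) had over 50% GC with a CpG observed-to-expected ratio over 0.6, against 33.3% of all windows. Searched on both strands, the ETS core CCGGAAG stood in 20 of 56 windows (35.7%, against 8.86% of all), GGGCGG of the Sp1 box in 33 (58.9%, against 35.7%), AAGATGGC of the YY1 site in 7 (12.5%, against 2.75%), the E box CACGTG in 8 (14.3%, against 7.15%) and TATAAA in 4 (7.14%, against 13.6%). A run of at least 5 pyrimidines covered the start in 18 windows (32.1%, against 16.1%). These letter matches describe the windows and are no evidence of binding. The promoters below are Rps6 as an autosomal example, Rps10 for a gene with a second, strongly bound region, and Rpl39 as the X-linked one with the largest difference. The results return to Rps10 and Rpl39. Capitals mark CpGs, the sites the antibody can see when methylated. The windows are chr4:86857318-86857617, chr17:27635195-27635494 and chrX:37085173-37085472, all on the minus strand.
Rps6: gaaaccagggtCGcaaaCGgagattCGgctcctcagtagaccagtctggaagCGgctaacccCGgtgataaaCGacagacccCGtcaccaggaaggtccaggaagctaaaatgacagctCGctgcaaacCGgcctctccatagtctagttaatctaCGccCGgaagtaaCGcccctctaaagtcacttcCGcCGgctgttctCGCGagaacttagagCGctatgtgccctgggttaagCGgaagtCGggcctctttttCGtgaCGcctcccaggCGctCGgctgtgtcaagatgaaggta
Rps10: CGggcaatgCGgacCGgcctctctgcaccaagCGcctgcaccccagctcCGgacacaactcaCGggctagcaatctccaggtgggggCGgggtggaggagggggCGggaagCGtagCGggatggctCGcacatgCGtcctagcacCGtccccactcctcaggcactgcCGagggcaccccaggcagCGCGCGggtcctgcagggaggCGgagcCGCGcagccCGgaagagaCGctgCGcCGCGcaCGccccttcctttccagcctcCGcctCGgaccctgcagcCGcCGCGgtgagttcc
Rpl39: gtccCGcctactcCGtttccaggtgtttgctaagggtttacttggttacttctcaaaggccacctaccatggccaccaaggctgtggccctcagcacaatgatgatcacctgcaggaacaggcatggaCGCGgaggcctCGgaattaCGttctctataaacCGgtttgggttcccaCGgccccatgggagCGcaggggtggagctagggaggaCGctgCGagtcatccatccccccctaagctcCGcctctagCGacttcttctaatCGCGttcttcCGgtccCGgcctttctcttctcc

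The ribosomal protein regions were weakly bound on all 8 arrays. Their median was −0.54 on ES aid-/-, −0.50 on ES wild type, −0.72 on ES mbd4-/- and −0.34 on the Gadd45a knockdown. In tissue it was −0.26 on liver aid-/-, −0.29 on liver mbd4-/-, −0.41 on spleen aid-/- and −0.27 on spleen mbd4-/-. The median over all regions was higher on each array, from −0.27 (ES aid-/-) to 0.08 (Gadd45a knockdown). Between 47 (ES aid-/-) and 58 (spleen aid-/-) of the 68 regions lay below the middle region of their array. The median percentile among all regions ran from 22.9 on ES mbd4-/- to 35.7 on ES aid-/-, with a mean of 29.7 over the arrays. The large-subunit and small-subunit medians were farthest apart on the Gadd45a knockdown, at −0.44 and −0.21. They were at −0.47 and −0.56 on ES aid-/- and at −0.29 and −0.26 on spleen mbd4-/-.

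How much of this low range lay near the background of the bound channel differed between arrays. On ES aid-/- the bound signal was above background for 55.4% of the ribosomal protein probes in these regions against 70.6% of all probes, and on ES mbd4-/- for 74.4% against 85.2%. It was above background for 90.9% of the ribosomal protein probes on ES wild type, 95.2% on liver mbd4-/- and 92.6% on spleen mbd4-/-. With the normexp background correction the mean median percentile was 37.9 in place of 29.7, and 47.0 in place of 35.7 on ES aid-/-. With the authors' deposited values, which hold 32 of these regions, the Gadd45a knockdown stood at the 55.3rd percentile in place of 29.8, above the middle of its array.

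The upper end of each array's scale was taken from its own regions and set beside germline and imprinted genes. The plateau, set here at the 98th percentile of autosomal regions, ranged from 2.23 (liver aid-/-) to 4.34 (ES aid-/-). A list of 12 germline gene regions had medians from 1.65 (Gadd45a knockdown) to 3.95 (ES aid-/-), which is 1.99 to 4.48 above the ribosomal protein median of the same array. At least 9 of those 12 regions were higher than every autosomal ribosomal protein region other than the distal Rps10 region, on each array. The 21 imprinted gene regions lay 4.53 and 4.99 above the ribosomal protein median on ES aid-/- and ES mbd4-/-, and 1.85 to 3.61 above it in liver and spleen. On ES wild type and the Gadd45a knockdown they lay only 0.31 and 0.18 above it.

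**Figure D1:**
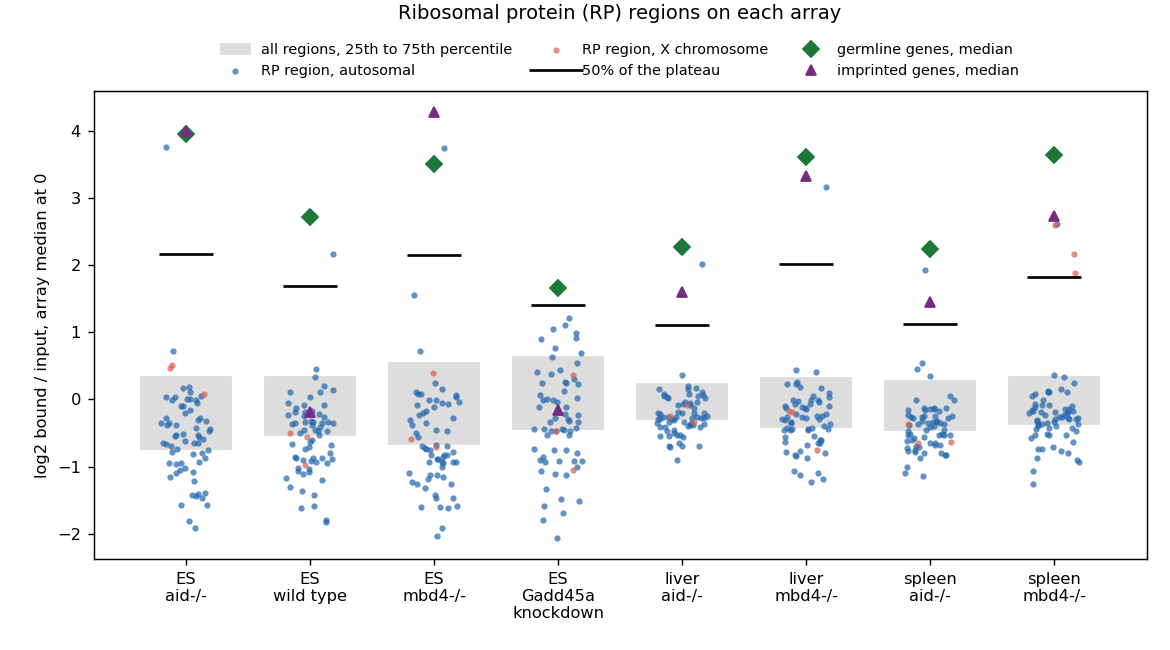
Values of the 68 ribosomal protein regions (points) on the 8 arrays, as log2 bound over input with the array median at 0; grey boxes span the quartiles of all 13183 regions, black lines mark 50% of the plateau, and diamonds and triangles are the medians of 12 germline and 21 imprinted regions. On 7 arrays 1 blue point, the distal Rps10 region, lies above the black line, and on spleen mbd4-/- the 3 X-linked points do so too.

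Only 4 ribosomal protein regions reached 50% of the plateau on any array, the distal Rps10 region and the 3 X-linked ones. Their counts were 1 of 68 on ES aid-/-, ES wild type, ES mbd4-/-, liver aid-/-, liver mbd4-/- and spleen aid-/-, 0 on the Gadd45a knockdown and 4 on spleen mbd4-/-. Over all regions the share at that level was 6.26% (ES wild type) to 10.6% (spleen mbd4-/-). The member just inside the threshold was Rps4x on spleen mbd4-/-, at 51.3% of the plateau, and the nearest outside it was Rpl10a on the Gadd45a knockdown, at 43.3%. At 25% of the plateau 11 regions counted, with Rpl7 added on ES mbd4-/- and the rest, among them Rpl10a, Rpl11, Rpl14 and Rpl24, added on the Gadd45a knockdown. No share of all regions is given at 25%, so the rise from 4 to 11 cannot be set against one.

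Of 7 other lists of protein synthesis and turnover genes, 5 had medians below 0 on every array. The 54 regions of mitochondrial ribosomal protein genes had medians from −0.61 to −0.25, and the 56 of translation factors from −0.62 to −0.11. The 27 regions of tRNA synthetases, which load tRNAs with amino acids, ran from −0.73 to −0.17. The 34 of ribosome biogenesis genes ran from −0.56 to −0.11, and the 25 of proteasome genes, which encode the protease that degrades ubiquitin-tagged proteins, from −0.52 to −0.10. All of these ranges overlapped that of the cytosolic ribosomal protein regions, −0.72 to −0.26. The other lists were above 0 on the Gadd45a knockdown, at 0.20 for 6 regions of other cytosolic ribosomal genes and 0.11 for 10 regions of S6 kinases, and below 0 elsewhere.

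Rps10, a small-subunit protein, had 2 regions with very different values. The start region (chromosome 17, 27771794 to 27772404, build mm9) and the distal region (27775999 to 27776299) were separated by 3595 bp. The probe sequences are shown because CpG content does not follow the signal here. Capitals mark CpGs, in the orientation of the array design. The start region's probes begin at 27771794, 27771969, 27772111, 27772291 and 27772360.
Start 1: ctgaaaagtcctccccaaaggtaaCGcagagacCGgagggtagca
Start 2: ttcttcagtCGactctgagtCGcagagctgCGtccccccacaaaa
Start 3: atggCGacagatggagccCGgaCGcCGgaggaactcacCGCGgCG
Start 4: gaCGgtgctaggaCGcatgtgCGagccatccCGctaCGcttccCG
Start 5: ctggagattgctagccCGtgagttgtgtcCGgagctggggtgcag
The distal region's probes begin at 27775999, 27776140 and 27776255.
Distal 1: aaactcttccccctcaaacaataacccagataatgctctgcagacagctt
Distal 2: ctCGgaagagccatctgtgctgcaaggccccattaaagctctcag
Distal 3: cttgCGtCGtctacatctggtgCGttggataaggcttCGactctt

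The start probes held 2 to 7 CpGs each and the distal probes 0, 1 and 4. Start probes 4 and 5 matched the RefSeq promoter shown above, with centres at −123.5 and −192.5 bases from the start. Since their coordinates rise away from the start, the distal region lay on the upstream side. The distal region was at 3.76, 2.16, 3.74, 0.98, 2.01, 3.15, 1.93 and 2.62, with SDs over its 3 probes of 0.14 to 0.81. It was the highest ribosomal protein region on every array but the Gadd45a knockdown, at 64.3% to 90.2% of the plateau on the other 7 and 35.1% on that one. The start region was at −0.96, −0.18, −0.27, −0.12, −0.13, −0.10, −0.24 and 0.05. The 2 regions did not overlap on 7 arrays, where each distal probe was above each start probe. On the Gadd45a knockdown the distal probe without a CpG was at 0.05, and the other 2 distal probes were at 1.50 and 1.39, against a highest start probe of 0.99. The older annotation named start probes 1 to 3 for EG666274 and not for Rps10. Whether the distal probes lie in an exon or intron, or also match other sites such as ribosomal protein pseudogenes, could not be checked. Their signal therefore cannot be assigned to this site with certainty.

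**Figure D2:**
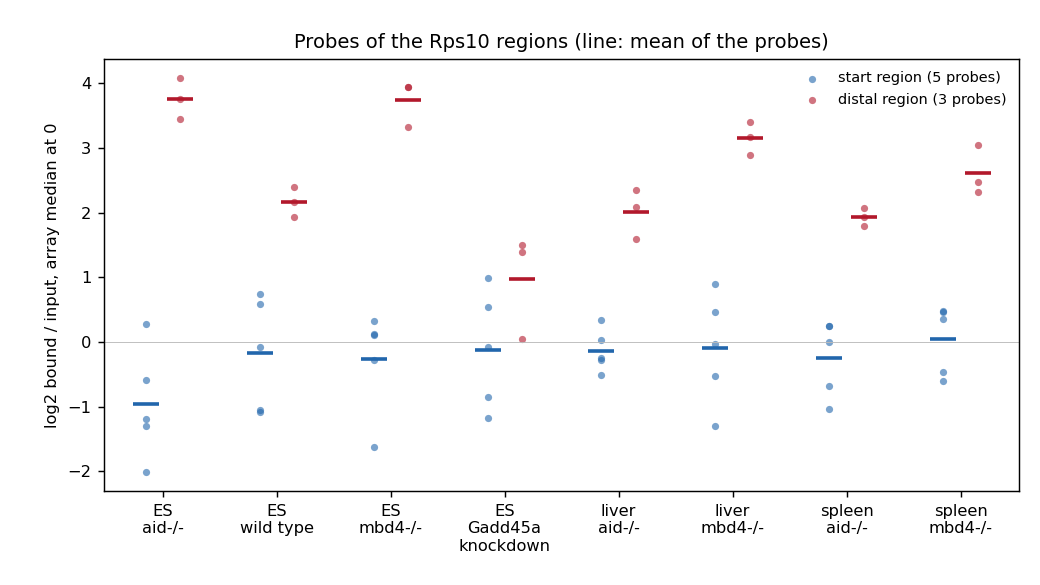
Single probes (points) and their means (lines) for the start region (blue, 5 probes) and the distal region (red, 3 probes) of Rps10 on the 8 arrays, as log2 bound over input with the array median at 0. The red probes lie above all blue ones on 7 arrays, and on the Gadd45a knockdown the lowest red probe is at 0.05, within the blue range.

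The other genes with more than 1 region did not show such a gap. Rpl12, a protein of the stalk base, had regions 4457 bp apart with means over the arrays of −0.46 and −0.46. Rpl31, at the rim of the peptide exit tunnel, had regions 496 bp apart with means of −0.49 and −0.80. Rpl7 (chromosome 1, 16082962 to 16083220), a large-subunit protein, was the second highest region. It was at 0.73, 0.45, 1.56, 0.26, 0.36, 0.41, 0.54 and 0.24, so ES mbd4-/- stood above the other arrays, with an SD over its 3 probes of 0.12 there. Rpl14, also of the large subunit, had a mean of 0.23 and was highest on the Gadd45a knockdown (1.04). The lowest regions by mean over the arrays were Rps25 (−1.13), Rpl6 (−1.06), Rps12 (−1.04), Rps2 (−1.01) and Rps13 (−0.97). In Rps25 3 of the 6 probes carry another name. Rpl6, a large-subunit protein, was at −1.81, −0.94, −1.60, −1.59, −0.34, −0.83, −0.79 and −0.58, so it was lowest on ES aid-/- and highest on liver aid-/-.

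Within the RefSeq promoter windows lay 72 probes of 39 of these genes, 57 before the start and 15 after it. Their medians ran from −0.66 (ES aid-/-) to −0.19 (spleen mbd4-/-), beside −0.54 and −0.27 for the whole regions on those arrays.

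The autosomal regions moved between arrays about as much as other autosomal regions. The median SD over the 8 arrays was 0.36 for the 65 autosomal ribosomal protein regions and 0.37 for all autosomal regions. An SD above 1 was seen in 0 of the 65, against 5.66% of all autosomal regions, and in Rpl39 and Rpl36a on the X chromosome. Across the 64 autosomal regions other than the distal Rps10 region, the mean over arrays rose with probe GC (r = 0.35 across regions) and not with CpG density (r = 0.02). Those points share arrays and base composition, and r with GC was 0.01 across all 12831 autosomal regions.

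**Figure D3:**
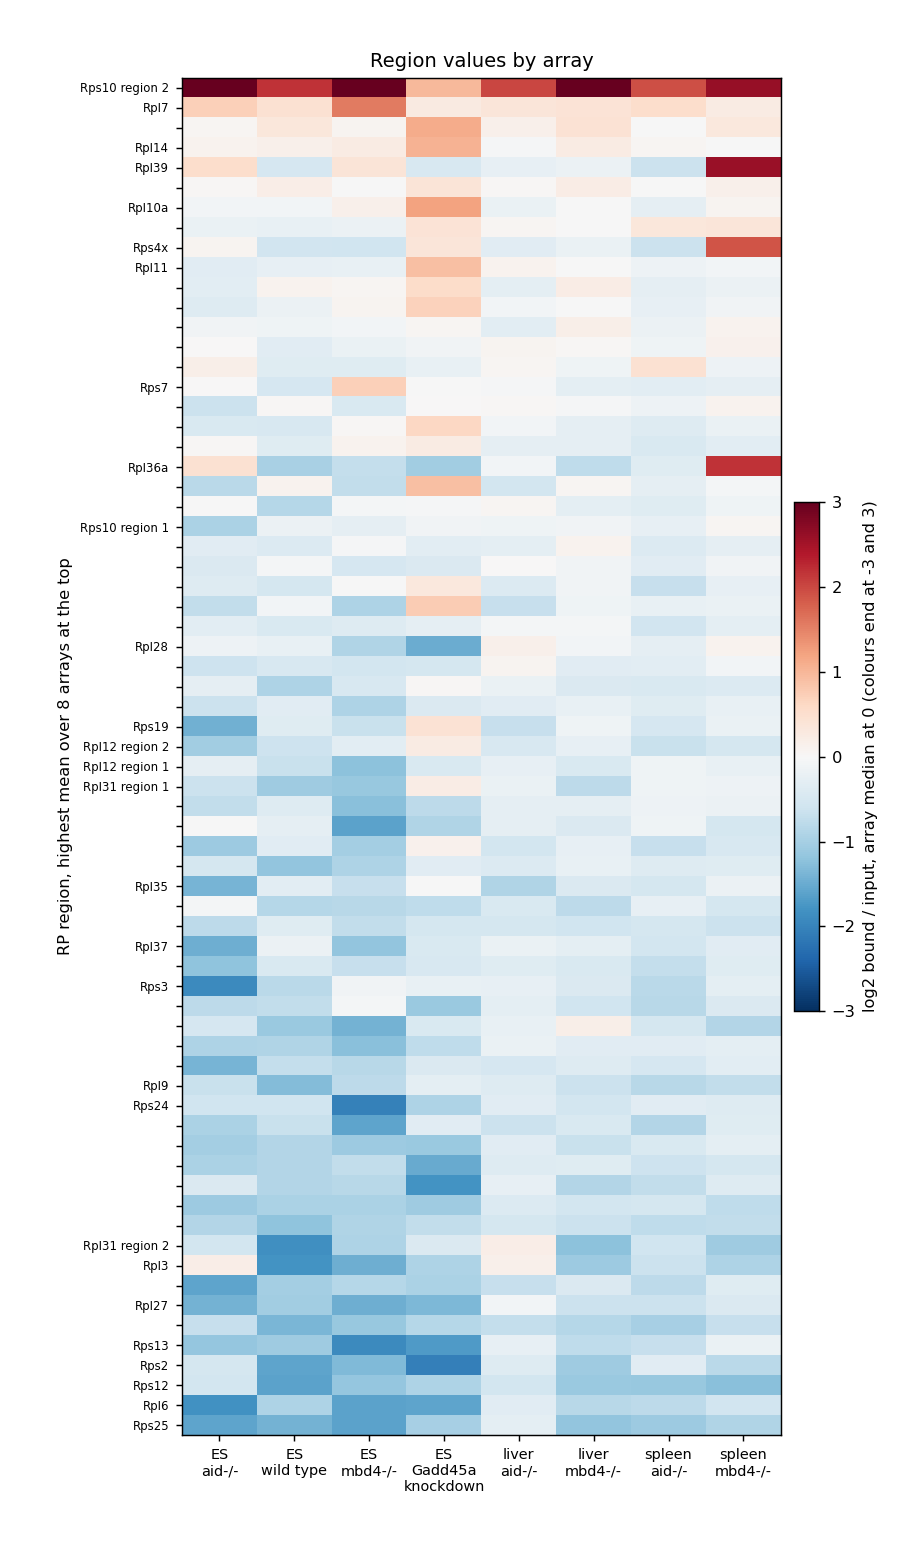
Colour map of the 68 ribosomal protein regions (rows, highest mean at the top, with regions the text describes labelled) on the 8 arrays (columns), as log2 bound over input with the array median at 0 and colours ending at −3 and 3. The distal Rps10 region (region 2) is red on 7 arrays and pale on the Gadd45a knockdown (0.98), Rpl39, Rps4x and Rpl36a are red on spleen mbd4-/-, and most other rows are pale or blue.

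The X-linked regions were high on 1 array. Rpl39, a small protein of the exit tunnel wall (chromosome X, 34625043 to 34625351), was at 2.60 on spleen mbd4-/- and between −0.64 and 0.52 on the other 7. Rpl36a (chromosome X, 131119929 to 131120748), a large-subunit protein, was at 2.16 there and between −1.05 and 0.47 elsewhere. Rps4x (chromosome X, 99384443 to 99384787), a small-subunit protein, was at 1.88 there and between −0.64 and 0.36 elsewhere. For all 3 the spleen mbd4-/- value did not overlap the other arrays. On that array the SD over probes was 0.88, 0.44 and 0.55, and 14 of 14 bound probes were above background.

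The Rpl39 promoter printed above held 2 of the array's probes. The one centred at 8.5 bases past the start was at 3.58 on spleen mbd4-/- and between −2.11 and 0.21 on the other arrays. The one at −111.5 was at 2.33 there and between 0.43 and 1.03 elsewhere.

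Other X regions were high on the same array. The median of all 352 X regions was 2.28 on spleen mbd4-/- and 0.14 to 0.66 on the other arrays, and 259 of them (73.6%) reached 50% of the plateau there against 5.68% to 17.3% elsewhere. Autosomal regions had a median of −0.08 on that array and 8.82% at that level. The input signal of X probes relative to autosomal probes was 0.02 (log2) on spleen mbd4-/- and −0.75 to −0.59 on the other 7 arrays. Thus X DNA in the input was higher on that array by 0.74 than on ES wild type. The labels give no sex, and the part of X dosage in these values was not tested.

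**Figure D4:**
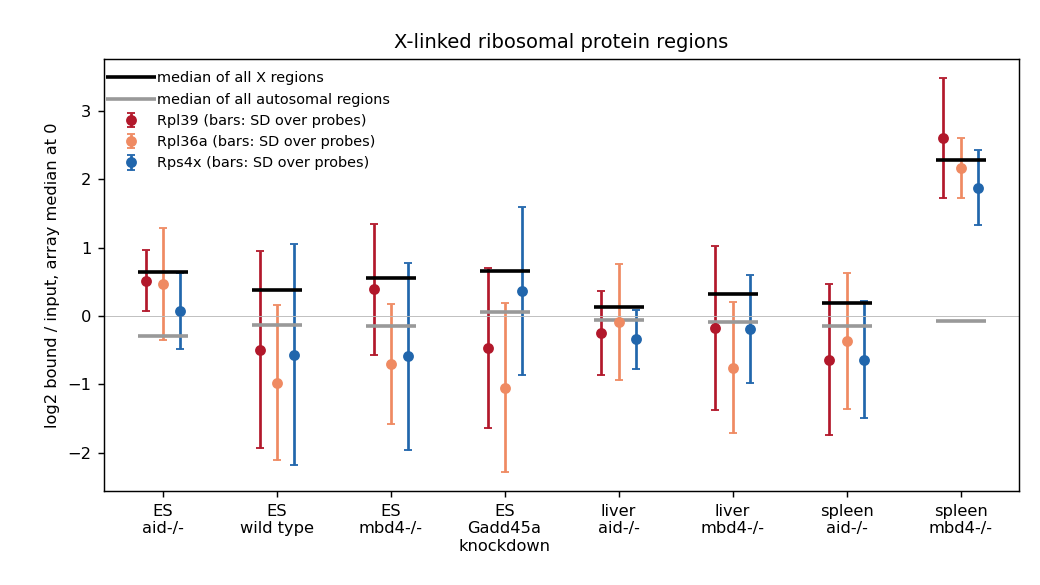
Values of Rpl39, Rpl36a and Rps4x (points, with the SD over probes as bars) on the 8 arrays, as log2 bound over input with the array median at 0; black and grey lines are the medians of all 352 X and all 12831 autosomal regions. The 3 regions and the X median lie between 1.88 and 2.60 on spleen mbd4-/- and at or below 0.66 on the other arrays.

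Arrays were then compared in pairs, listing a region as different when its means differed by at least 1 (log2) and at least 75% of its probes differed the same way. Over 6 comparisons this listed 20 of the 68 regions in 34 instances, 20 higher and 14 lower in the first array. The other 48 regions were listed in none. Shares of all regions are given below for each comparison and not over the 6 together, so the 20 of 68 has no background beside it. Counts under other scalings or corrections are given without such a share, so a change in them cannot be set against one. The comparisons share arrays, so one array can place a region in several. Of the 34, 21 still met the rule after a trend on probe GC was removed, 19 after all arrays were set to 1 plateau, and 6 with the normexp background correction. Those 6 were the distal Rps10 region in 2 comparisons, Rpl28, and the 3 X-linked regions in spleen. With normexp 27 of the others kept their direction but fell below the rule, whose difference of 1 was not rescaled, and 1 reversed.

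In ES aid-/- against ES wild type, 6 regions were higher (8.82%, against 6.77% of all regions) and 4 lower (5.88%, against 3.71%). The split depended on the scaling, with 9 higher and 0 lower when arrays were centred on their low mode and 4 and 0 at 1 plateau. Rpl3, which lies at the peptidyl transferase centre, was at 0.19 ± 1.08 (SD, 4 probes) without AID and −1.80 ± 1.79 in the wild-type cells, but only 1 of its 4 bound probes was above background on either array. The distal Rps10 region was higher by 1.60 with 3 of 3 probes above background. Its difference was 0.75 at 1 plateau and 0.85 with normexp, both below the rule. Also higher were Rpl36a by 1.44, the second Rpl31 region by 1.28, Rps12 by 1.05 and Rpl39 by 1.01. Rpl37, Rps3, Rpl35 and Rps19, the gene most often mutated in Diamond-Blackfan anaemia, were lower by 1.29, 1.12, 1.09 and 1.08. With the authors' deposited values the differences turned, to 0.34 at Rpl37 and −0.69 at Rpl36a. The median difference of the 68 regions was −0.03, with 33 above and 35 below 0. The differences followed probe GC (r = −0.53 across the 68 regions). The regions listed as higher had a median GC of 48.3% and those listed as lower 56.5%, against 55.2% for the 68.

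In ES mbd4-/- against ES wild type, 3 regions were higher (4.41%, against 7.95% of all regions) and 3 lower (4.41%, against 2.42%). Centred on the low mode the split was 6 and 2, and at 1 plateau 2 and 0. The distal Rps10 region was higher by 1.58, Rps7 by 1.22 and Rpl7 by 1.11. For Rpl7 all 3 probes were higher and above background on both arrays. At 1 plateau the differences at Rpl7 and the distal Rps10 region were 0.77 and 0.76, below the rule, while Rps7 stayed at 1.06. With normexp all of them were below it, at 0.64 for Rpl7, 0.68 for the distal Rps10 region and 0.56 for Rps7. The lower ones included Rps24 (−2.03 against −0.60) and Rpl37 (−1.19 against −0.18), with 2 of 5 and 5 of 9 bound probes above background in mbd4-/-. With the deposited values the difference at Rpl37 was 0.060. The median difference was 0.01, and the differences did not follow probe GC (r = 0.09).

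In the Gadd45a knockdown against ES wild type, 5 regions were higher (7.35%, against 7.59% of all regions) and 2 lower (2.94%, against 5.88%). Centred on the low mode the split was 4 and 3. Both Rpl31 regions were higher, by 1.30 and 1.40, as were Rpl10a by 1.29, Rpl11 by 1.15 and Rpl9 by 1.01. Rpl11 is part of the 5S ribonucleoprotein that binds Mdm2. The second Rpl31 region was lower by 0.42 with the normexp correction, so its direction depends on the background. Rpl28 was lower by 1.27, at −1.49 against −0.22, with 4 of 4 bound probes above background on both arrays. The distal Rps10 region was lower by 1.18, at 0.98 against 2.16. The median difference of the 68 regions was 0.21 against 0.17 for all regions. The 3 comparisons above share the wild-type array. ES aid-/- was scanned on the same day as that array, on another slide. ES mbd4-/- and the Gadd45a knockdown were scanned on other days and slides, so their differences from wild type cannot be told apart from scan day.

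The aid-/- and mbd4-/- arrays were also compared within ES cells, liver and spleen. In each of these pairs the arrays were scanned on different days. In ES cells 4 regions were higher in aid-/- (5.88%, against 1.7% of all regions), among them Rpl3 by 1.66, Rps24 by 1.44 and Rpl36a by 1.17 (−0.39 with the deposited values). Rps3 was lower by 1.81 (1.47%, against 3.47% lower in all). Of these 5, Rps24 and Rps3 still met the rule after the GC trend was removed, and 0 did with the normexp correction. On each array the bound probes above background were 2 of 5 at Rps24, 2 of 3 at Rps3 and 1 of 4 at Rpl3. The SD over the Rps3 probes was 2.19 on ES aid-/- and 1.55 on ES mbd4-/-. The differences followed probe GC (r = −0.66 across the 68 regions), and Rpl3 and Rpl36a had 46.2% and 47.0% GC. On ES aid-/- the median of all 830 regions under 50% GC was −0.03 against −0.28 for the others, while on ES mbd4-/- it was −0.39 against −0.11. In liver Rpl31 (second region) and Rpl3 were higher in aid-/- by 1.44 and 1.25 (2.94%, against 0.88% of all regions). The distal Rps10 region was lower there by 1.14 (1.47%, against 8.01%), but with both arrays set to 1 plateau it was higher by 0.39, and the split was then 2 and 0.

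In spleen 0 of 68 regions were higher in aid-/- (0.182% of all regions were) and 3 were lower (4.41%, against 8.15%). The 3 were Rpl39 by 3.24, Rpl36a by 2.53 and Rps4x by 2.51. All 14 probes of these regions differed that way, and all 3 met the rule under each of the alternatives that kept the region. Of all 352 X regions 88.1% were lower, against 5.96% of autosomal regions. Of the 65 autosomal ribosomal protein regions 0 were lower.

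**Figure D5:**
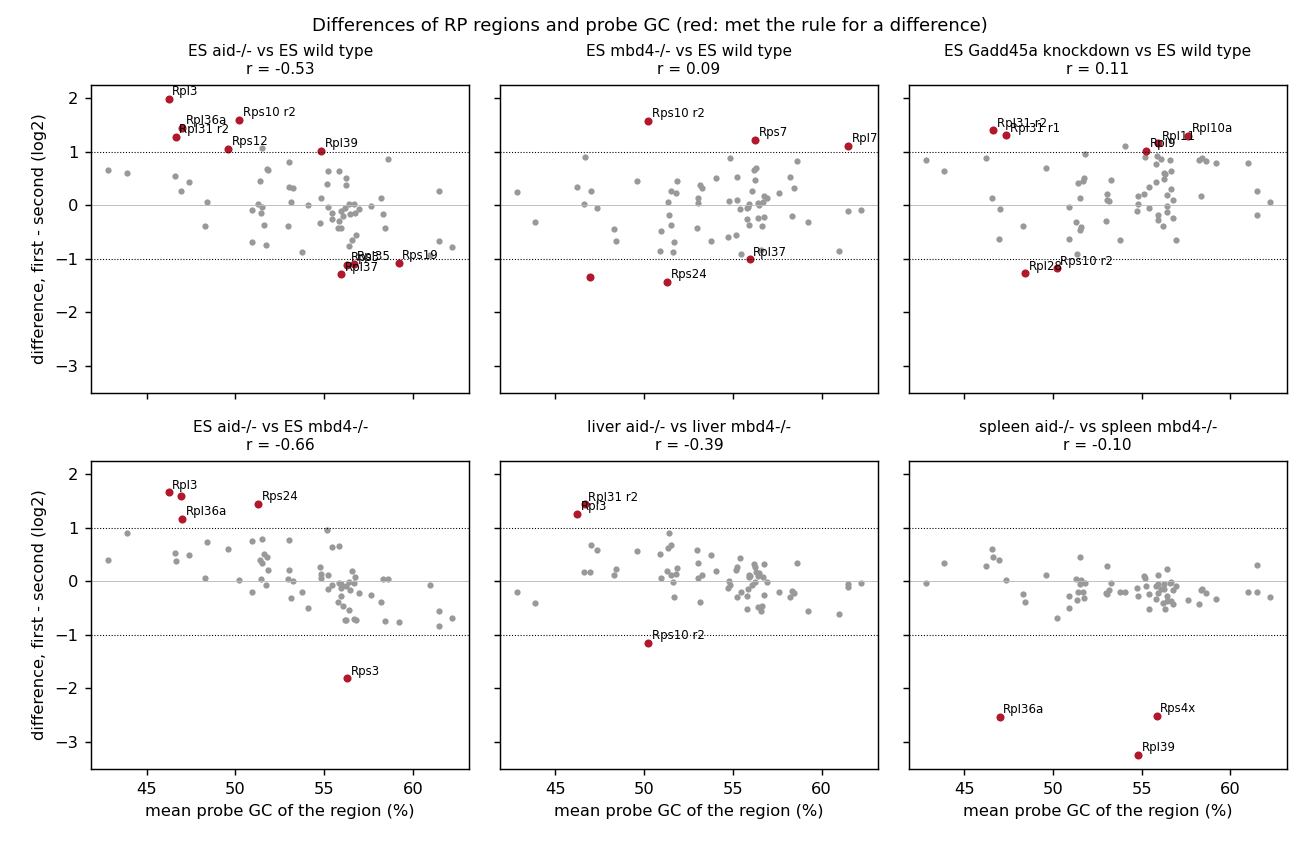
Difference between 2 arrays (first minus second, log2) against the mean GC of a region's probes (%) for the 68 ribosomal protein regions in the 6 comparisons; red points met the rule, dotted lines mark −1 and 1, and r is across the 68 regions. The cloud slopes down in ES aid-/- against ES wild type (r = −0.53) and against ES mbd4-/- (r = −0.66), and in spleen the 3 X-linked regions stand alone below −2.5.

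In the Gadd45a knockdown against wild type, 7.59% of all regions were higher and 5.88% lower. Of 54 mitochondrial ribosomal regions, 7 were higher there and 0 lower, and of 34 ribosome biogenesis regions 5 and 0. In ES aid-/- against wild type, 17 of 21 imprinted regions were higher and 0 lower, against 6.77% and 3.71% of all regions. In ES mbd4-/- against the same wild-type array 16 of 21 were higher and 0 lower, against 7.95% and 2.42%. In liver 17 of 21 imprinted regions were lower in aid-/- than in mbd4-/- and in spleen 15, against 8.01% and 8.15% of all regions. Germline regions were lower there too, 11 of 12 in liver and 10 of 12 in spleen. The plateau was also lower on the aid-/- arrays, at 2.23 against 4.02 in liver and 2.24 against 3.65 in spleen. The part of this difference in scale in those counts was not tested.

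Tissues and genotypes were compared over all arrays with limma, so that the arrays of a tissue differ in genotype and the spread between them includes it. For ES cells (4 arrays) against liver and spleen (4 arrays), 0 of 68 regions passed an adjusted p of 0.05 in either direction, while 0.0834% of all regions were higher and 0.137% lower in ES cells. At an unadjusted p under 0.05, 0 were higher (against 5.86% of all regions) and 9 lower (13.2%, against 9.28%). With scan day as a term 3 were lower (4.41%, against 7.77%). ES mbd4-/- and the Gadd45a knockdown were each the only array of their scan day. In that fit the ES side therefore rests on ES aid-/- and ES wild type alone. Leaving out 1 array gave 4 (without liver aid-/-, 5.88%, against 5.42% of all regions) to 14 (without the Gadd45a knockdown, 20.6%, against 12.8%). Without spleen mbd4-/- it gave 6 (8.82%, against 5.28%). The lowest adjusted p was that of Rpl27, a large-subunit protein. It was at −1.42, −1.04, −1.47 and −1.34 on the ES arrays and at −0.08, −0.66, −0.65 and −0.44 in tissue. These values did not overlap, with a limma difference of −0.86 (SE 0.21, adjusted p = 0.13). They lay partly near background. Of the 3 bound Rpl27 probes, 0 were above background on ES aid-/-, 2 on ES mbd4-/-, 2 on liver aid-/- and 1 on spleen aid-/-. The SD over its probes was 1.56 on liver aid-/-. Rps13 followed (−0.98, SE 0.27, adjusted p = 0.16). The median difference of the 68 regions was −0.25, against −0.06 for all regions, with 52 of 68 lower in ES cells. That shift was −0.07 after the GC trend was removed and −0.08 with normexp, and it turned to 0.16 (34 regions) when bound signal above background was required, close to the 0.16 of all regions in that setting.

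Liver (2 arrays) against spleen (2 arrays) gave 0 of 68 regions by limma, 0% of all regions in each direction, and 0 at an unadjusted p under 0.05. For aid-/- (3 arrays) against mbd4-/- (3 arrays), with tissue as a term, 0 of 68 passed and 0% of all regions. At an unadjusted p under 0.05, 3 were higher (4.41%, against 2.90% of all regions) and 3 lower (4.41%, against 9.84%). Rpl3 was the first of these (1.07, SE 0.29, limma adjusted p = 0.39), with Rps2 and the second Rpl31 region also higher and Rps19, Rpl35 and Rpl36al lower. Without either ES array the distal Rps10 region passed (−0.92, SE 0.22, limma adjusted p = 0.026), in a fit where 58 of all regions were higher and 1070 lower. As a share of the plateau the same region was higher in aid-/- in both tissues of that fit, at 90.2% against 78.5% in liver and 86.3% against 71.6% in spleen. All aid-/- arrays were scanned on 1 day and the mbd4-/- arrays on others, so genotype and scan day cannot be told apart.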

How the data were processed

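The members and lists were chosen with earlier results of these data known. Spot intensity values of both dyes were deposited as scanner output (Agilent Feature Extraction 10.7.3.1 for ES mbd4-/- and the Gadd45a knockdown, 10.9.1.1 for the other 6, per the file headers), background-subtracted and dye-normalised there, in build mm9. The deposited log10 ratio was used only to check direction. The deposited value table is a score of unstated scale, with array medians of −0.21 to −0.03 and r = 0.898 to 0.972 with the scanner ratio, and was an alternative. Of 88737 probes, 326 without a position, 132 outliers and 7174 whose input signal failed to exceed background on at least 1 array were removed, leaving 81105. Log2 ratios were centred on each array's median, probes up to 500 bp apart were joined and averaged, and 13183 of 15534 regions had 3 or more probes. A region is a member where at least 50% of its probes, or its main name, are ribosomal. Median input signal ran from 95.5 to 274, and bound signal from 36.0 to 115.5. Precision is limited by the number of arrays. P-values measure only the spread between arrays.

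Pair differences have no test. Limma 3.58.1 (R 4.3.3) was fitted to all regions with Benjamini-Hochberg adjustment, and both methods were tested on simulated data. Named regions are the 5 highest and 5 lowest means, those at 50% of the plateau, up to 10 listed in each direction per comparison, the X-linked ones, genes with several regions, Rpl7 and Rpl31. Motifs were searched in RefSeq windows. Normexp (offset 50) used median signals, since mean signals were not in every file. Alternatives are listed in the closing section. The scan day term could not be fitted for aid-/- against mbd4-/-. Some single regions and probes are not reported here, but they remain in the counts and medians.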

Additional observations from a re-analysis of the deposited data

Results flagged for a closer look

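The difference of aid-/- minus mbd4-/- at Rpl36a ran in opposite directions, 1.17 in ES cells and −2.53 in spleen (log2, 1 array a side), and this contrast between tissues was not tested. In the deposited values the ES difference was −0.39.

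Among the 24 ribosomal protein probes outside the 68 regions, 4 reached 50% of the plateau on some array and exceeded their ES wild-type value, and 3 of them are given here. A probe named for Rpl14 (chromosome 9, 120480628 to 120480672) was at 2.06 on the Gadd45a knockdown and 0.88 on ES wild type. The Rpl10 probe (chromosome X, 71515994 to 71516040) was at 3.04 on spleen mbd4-/- and −1.64 on ES wild type. A second Rps4x probe (chromosome X, 99373827 to 99373871) was at 2.77 on spleen mbd4-/- and 1.24 on ES wild type. It was also at 2.10 on ES aid-/-, 2.04 on ES mbd4-/-, 1.09 and 1.73 in liver and 1.41 on spleen aid-/-. On the Gadd45a knockdown it was at −0.11, and it reached 50% of the plateau on 2 arrays. Each of these 3 results is from 1 probe, so no spread can be given.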

How the results depend on the processing

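The mean median percentile of the ribosomal protein regions stayed below 50 under all 13 alternatives tried and was 37.9 with normexp, 38.4 with the deposited values and 36.3 with bound signal required above background. At 25% of the plateau 11 regions counted in place of 4, with no share of all regions at that level beside it. In the order aid-/-, mbd4-/- and Gadd45a knockdown against ES wild type, then aid-/- against mbd4-/- in ES cells, liver and spleen, the counts of listed regions were 10, 6, 7, 5, 3 and 3. With a difference of at least 0.5 they were 21, 18, 23, 20, 10 and 6. As shares of the ribosomal protein regions these were 30.9%, 26.5%, 33.8%, 29.4%, 14.7% and 8.82%. The shares of all regions at that difference were 27.3%, 29.5%, 32.1%, 23.9%, 22.7% and 18.3%, so liver and spleen lay below them. The counts that follow, for the other alternatives, have no share of all regions beside them, so their rise or fall cannot be set against one. Normexp gave 0, 0, 2, 0 and 1 listed regions in the first 5 comparisons. The deposited values, with 32 regions, gave 0 in aid-/- and 2 in mbd4-/- against wild type, and 0, 1 and 1 within ES cells, liver and spleen. One plateau gave 4 in aid-/- and 2 in mbd4-/- against wild type. With the GC trend removed aid-/- gave 5 against wild type and 2 against mbd4-/-. Without the input filter aid-/- against mbd4-/- in ES cells gave 8. Requiring bound signal above background kept 34 regions and gave 2 in aid-/- against wild type, 2 in aid-/- against mbd4-/- ES cells, 1 in liver and 1 in spleen. With at least 5 probes, 44 regions gave 3 in aid-/-, 3 in the knockdown, 3 in aid-/- against mbd4-/- ES cells, 0 in liver and 1 in spleen. The median of probes gave 10 in mbd4-/-, 8 in aid-/- against mbd4-/- ES cells and 5 in liver. Newer gene names alone, an alternative chosen after seeing the data, gave 3 in aid-/- against mbd4-/- ES cells. Centring on the probes used, also chosen after seeing the data, and the remaining alternatives kept each count within 1.5 times. Of the 34 listed differences, 1 reversed with normexp (second Rpl31 region in the knockdown, −0.42), 1 with one plateau (distal Rps10 region in liver, 0.39) and 5 with the deposited values: Rpl37 in aid-/- (0.34) and mbd4-/- (0.060), Rpl36a in aid-/- against wild type (−0.69) and against mbd4-/- (−0.39), and the distal Rps10 region in liver (0.043). The cause was not tested. The limma counts were 0 in each contrast under every alternative run, except that leaving out 1 array gave 0 to 1 in aid-/- against mbd4-/-, the 1 being the distal Rps10 region without either ES array. No paired analysis was possible because each group has 1 array and no replicate number; the tissue term of the limma fit is the only pairing of aid-/- with mbd4-/- arrays. Signal near background limits the low values.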
